A study of Mus musculus with 4 samples.

Results

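The 10 genes described here act in the breakdown, salvage and uptake of purines and nucleotides in the small intestine, with 1 lipid hydrolase that belongs to the same enzyme family as the nucleotide hydrolases. They are Ada, Pnp and Xdh, the salvage enzymes Adk and Hprt, the cell surface hydrolases Enpp3, Nt5e and Enpp7, and the nucleoside carriers Slc28a1 and Slc28a2. Members were the features of the array whose annotation gave 1 gene symbol, that symbol being a listed gene, and of several features for a gene the one brightest on average was taken. All 10 were found, through 11 features, among 30718 genes with a symbol. The genes were chosen by their place in nucleotide metabolism together with their log2 differences between the LncGata6 mutant and the wild-type stem sample, which were known when the list was made, so every count over it is a description.

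Total RNA of sorted small intestinal cells was measured on 4 whole-transcript arrays, 1 per group, with no replicates. All mice carried Lgr5GFP-CreERT2, in which GFP and an inducible Cre are expressed from Lgr5, a gene of crypt base stem cells, and were 8 weeks old. The groups were GFP+ stem cells with a mutated LncGata6 (a long noncoding RNA next to Gata6), GFP+ stem cells of Ehf-/- mice, which lack an ETS transcription factor of epithelia, GFP+ stem cells of wild-type mice, and GFP- non-stem cells of wild-type mice. Strain, sex, the number of mice per sample and how either mutation was made are not given in the sources used here. The collection protocol names ILCreg cells, an innate lymphoid type, as the cells sorted, in conflict with the sample labels. No comparison below has an estimate of its error, and no test is possible.

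Food brings nucleic acids into the gut lumen, where they are cut to nucleotides and nucleosides. Enzymes of the cell surface remove phosphates, sodium-coupled carriers take up the nucleosides, and cells either rebuild nucleotides from them by salvage or degrade purines through inosine, hypoxanthine and xanthine to urate. Adenosine deaminase, Nt5e and the purine carrier Slc28a2 are known as genes of mature enterocytes near the villus tip in the mouse, while dividing cells draw on salvage and on synthesis from small precursors.

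The labels were set against marker genes first, because most members are enterocyte genes. A marker counted as above background where its value reached the 95th percentile of the negative controls of its array, which was 5.31 on the LncGata6 mutant, 5.19 on the Ehf knockout, 5.62 on the wild-type stem and 5.16 on the non-stem sample (log2). Lgr5 read 3.03 on the LncGata6 mutant sample, 2.79 on the Ehf knockout sample, 9.41 on the wild-type stem sample and 3.03 on the non-stem sample, so the gene that defined the sort was above background on the wild-type stem sample alone. Enterocyte markers were above background in 27 of 27 cases on the LncGata6 mutant sample, 2 of 27 on the Ehf knockout sample, 18 of 27 on the wild-type stem sample and 27 of 27 on the non-stem sample. General epithelial markers stood at 12, 1, 13 and 11 of 13 in the same order of arrays. On the array labelled Ehf knockout, 12 of 12 neutrophil markers were above background, against 0 of 12 on the wild-type stem sample. On the array labelled non-stem, 15 of 15 hepatocyte and 15 of 15 kidney tubule markers were above background, against 0 to 2 of 15 on each stem cell array. Arrays are called by their labels throughout, and in these bulk samples fewer cells of a type and less RNA per cell cannot be told apart.

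**Figure D1:**
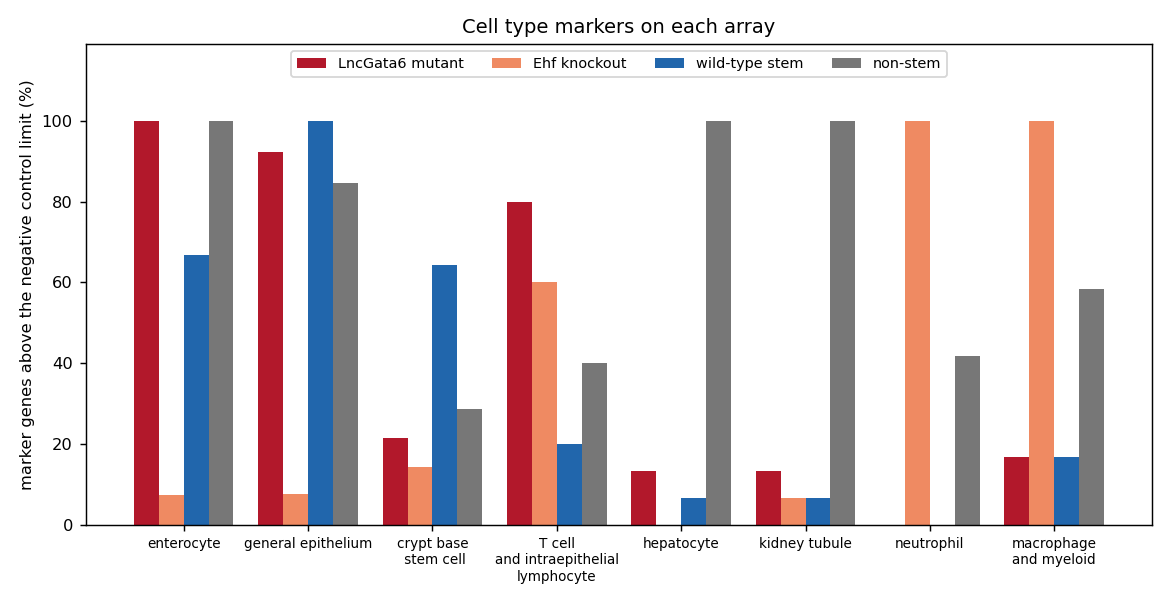
Share of the marker genes of 8 cell types that reached the negative control limit (vertical axis, percent of measured markers), with 1 bar per array for the LncGata6 mutant, Ehf knockout, wild-type stem and non-stem samples. All 27 enterocyte markers were above the limit on the LncGata6 mutant and non-stem samples, and hepatocyte and kidney markers were at 15 of 15 on the non-stem sample.

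The sequences just before the transcription start are shown for the 4 members that stood furthest above wild type on the LncGata6 mutant sample and for Hprt, whose level varied least over the arrays. They are 250 bases long, written on the strand of the gene from RefSeq (GRCm38.p6), and cover chr2:163750240-163750489 (minus strand) for Ada, chr10:24836196-24836445 (minus strand) for Enpp3, chr11:118987931-118988180 (plus strand) for Enpp7 and chrX:52987828-52988077 (plus strand) for Hprt. For Slc28a2 the stretch is chr2:122426185-122426356 (plus strand), 172 bases of the window that lie before the first annotated base of the gene. Capitals mark matches to the motifs named after the sequences.
Ada: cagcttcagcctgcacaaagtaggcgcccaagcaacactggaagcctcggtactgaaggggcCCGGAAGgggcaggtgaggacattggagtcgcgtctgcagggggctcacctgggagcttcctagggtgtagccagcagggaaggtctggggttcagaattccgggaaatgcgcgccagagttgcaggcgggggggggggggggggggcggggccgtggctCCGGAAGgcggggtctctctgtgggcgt
Enpp3: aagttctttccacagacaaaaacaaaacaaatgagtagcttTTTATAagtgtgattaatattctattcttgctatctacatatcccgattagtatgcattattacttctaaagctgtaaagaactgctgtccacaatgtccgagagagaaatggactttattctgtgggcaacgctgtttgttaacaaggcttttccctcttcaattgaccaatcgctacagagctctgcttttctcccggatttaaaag
Enpp7: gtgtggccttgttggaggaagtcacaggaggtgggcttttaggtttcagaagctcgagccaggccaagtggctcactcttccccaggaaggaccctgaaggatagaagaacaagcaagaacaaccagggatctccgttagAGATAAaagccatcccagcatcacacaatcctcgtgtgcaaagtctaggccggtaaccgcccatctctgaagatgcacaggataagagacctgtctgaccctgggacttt
Slc28a2: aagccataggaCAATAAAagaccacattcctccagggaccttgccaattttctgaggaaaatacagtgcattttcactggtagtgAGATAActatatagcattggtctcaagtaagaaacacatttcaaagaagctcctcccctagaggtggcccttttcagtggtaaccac
Hprt: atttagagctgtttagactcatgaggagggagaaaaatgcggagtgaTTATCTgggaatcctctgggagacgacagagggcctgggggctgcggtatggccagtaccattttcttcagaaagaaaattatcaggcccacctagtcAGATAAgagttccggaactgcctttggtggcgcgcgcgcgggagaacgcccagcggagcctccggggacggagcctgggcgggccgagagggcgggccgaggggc

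These windows differed in composition. The G and C content was 67.2% for Ada, 36.8% for Enpp3, 52.4% for Enpp7, 45.2% for Slc28a2 and 59.6% for Hprt. The median over 32851 promoter windows of 250 bases was 52.4%. Values for Slc28a2 cover its full window, of which the 172 bases before the annotated gene are printed. Hprt, the classic housekeeping gene of salvage, had 17 CG steps and Ada 14, while Enpp3 and Enpp7 had 5 each and Slc28a2 had 0, against a median of 6. Ada and Enpp3, both with a wide range over the arrays, had the highest and the lowest G and C content of these windows.

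Both strands of the windows of the 9 members with a promoter entry were searched for 6 motifs, and no 2 matches overlapped. The ETS motif CCGGAAG, of the class that Ehf binds, occurred before Ada, with first bases 188 and 28 before the start, and in 6.91% of all windows. The GATA motif AGATAA was found before Hprt, Slc28a2 and Enpp7, 3 of 9 members, and in 9.99% of all windows. The CDX motif TTTATTG was found before Slc28a2 (4.20% of all windows), and the TATA letters TATAAA before Enpp3 (12.4%), on the opposite strand and 209 bases before the start. The HNF4 motif CAAAGTCC (1.20% of all windows) and the HNF1 motif (0.371%) were in none of the 9. A match describes letters and not a bound site.

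Across the 4 arrays, 8 of 10 members had their highest value on the LncGata6 mutant sample, which 17.2% of all genes did. In 7 of the 8 the non-stem sample came next, an order shared by 5.71% of all genes. The exceptions were Adk, highest on the non-stem sample, and Hprt, highest on the wild-type stem sample. The median range of a member over the arrays was 3.68 (log2), against 0.70 for all genes and 1.28 for the genes above background on at least 1 array. On the LncGata6 mutant sample 10 of 10 members were above background, on the Ehf knockout sample 5, on the wild-type stem sample 5 and on the non-stem sample 8. The members were chosen with their LncGata6 mutant and wild-type stem values known, so nothing is read from these shares, the range or the counts.

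**Figure D2:**
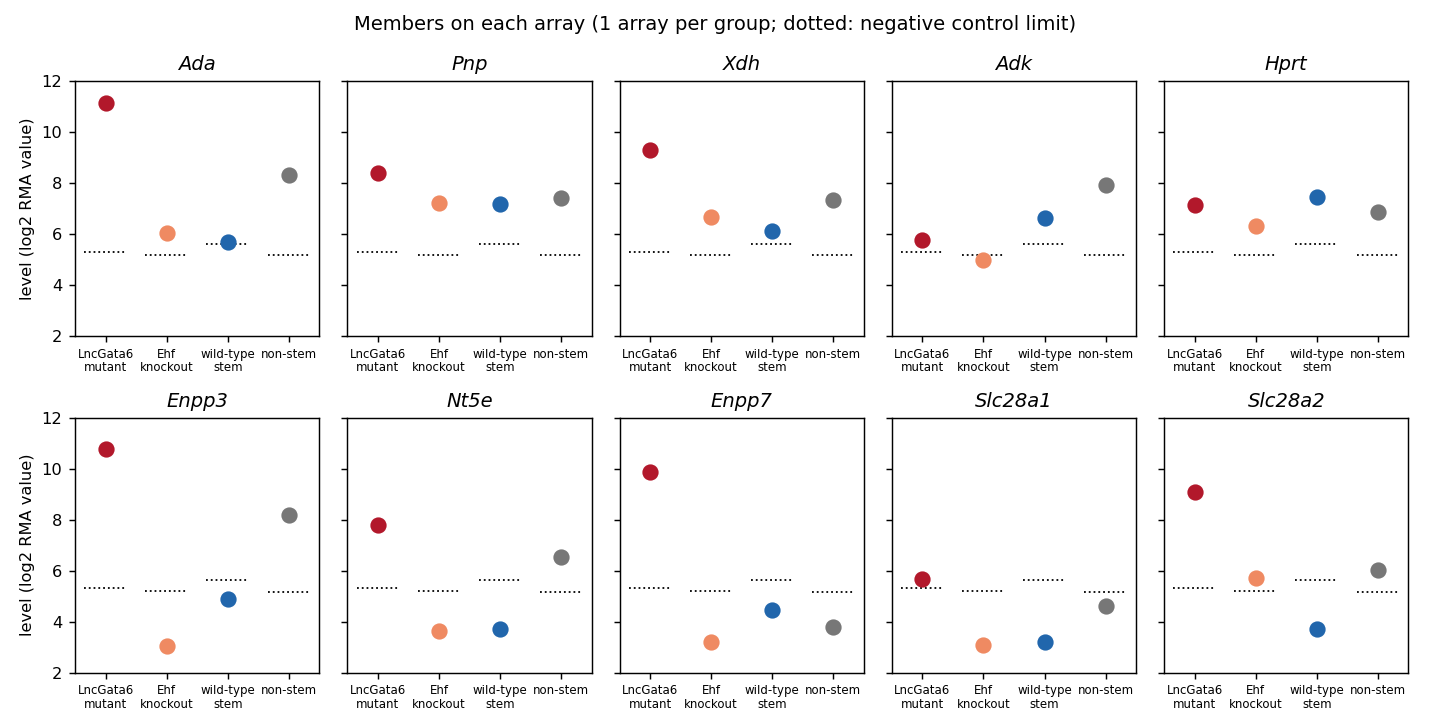
Level of each of the 10 members (vertical axis, log2 RMA value) on the LncGata6 mutant, Ehf knockout, wild-type stem and non-stem samples, 1 point per array, with the negative control limit of that array as a dotted line. Ada, Enpp3, Enpp7 and Slc28a2 lie between 9.07 and 11.13 on the LncGata6 mutant sample and between 3.70 and 5.69 on the wild-type stem sample, while Hprt stays between 6.32 and 7.44 on all 4.

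Nucleotides outside the cell are handled first by the surface hydrolases. Enpp3, which cleaves ATP and other nucleotides to monophosphates, read 10.78 on the LncGata6 mutant sample, 3.06 on the Ehf knockout sample, 4.89 on the wild-type stem sample and 8.19 on the non-stem sample (log2). Its range of 7.72 was the widest of the 10, and it was above background on the LncGata6 mutant and non-stem samples alone. Nt5e (CD73), which turns AMP into adenosine, read 7.81, 3.65, 3.70 and 6.54 on the same arrays. It was likewise above background on the LncGata6 mutant and non-stem samples and at background on the other two. Enpp7, the alkaline sphingomyelinase of the brush border, is related to Enpp3 by sequence but acts on lipids. It read 9.87 on the LncGata6 mutant sample and 3.21, 4.46 and 3.79 on the Ehf knockout, wild-type stem and non-stem samples, so it differed from the other surface enzymes in being at background on the non-stem sample.

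Nucleosides enter through the carriers. Slc28a2, the purine-preferring sodium-coupled carrier, read 9.07 on the LncGata6 mutant sample, 5.73 on the Ehf knockout sample, 3.70 on the wild-type stem sample and 6.04 on the non-stem sample. The wild-type stem sample was the one on which it was at background. Slc28a1, the pyrimidine-preferring carrier, read 5.66, 3.07, 3.20 and 4.63 in the same order and passed its control limit on the LncGata6 mutant sample alone. Slc28a2b, a close copy of Slc28a2 whose transcripts may share probes with it, read 7.99, 4.61, 3.02 and 4.62, so the signals of the pair may not be independent.

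Inside the cell the purine breakdown enzymes act in sequence. Ada, which deaminates adenosine to inosine, read 11.13 on the LncGata6 mutant sample, 6.04 on the Ehf knockout sample, 5.69 on the wild-type stem sample and 8.31 on the non-stem sample. All 4 values were above background, the wild-type stem value by a narrow margin. Pnp, which splits inosine and guanosine, read 8.39, 7.21, 7.19 and 7.42 on these arrays. Apart from the LncGata6 mutant sample its values lay within 0.23 of each other. Its neighbour and close copy Pnp2, which may share probes, read 8.93, 7.49, 7.65 and 7.80. Xdh, which oxidises hypoxanthine and xanthine to urate, read 9.31, 6.67, 6.10 and 7.34 through the feature used. A second feature annotated to Xdh read 6.54, 5.74, 5.89 and 6.42, so the features agree on which array was highest but not on the size of the differences.

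The salvage enzymes had other profiles. Adk, which phosphorylates adenosine to AMP, read 5.76 on the LncGata6 mutant sample, 4.97 on the Ehf knockout sample, 6.64 on the wild-type stem sample and 7.94 on the non-stem sample. It was lowest on the arrays labelled as mutants and below its control limit on the Ehf knockout sample. Hprt, which rebuilds IMP and GMP from hypoxanthine and guanine, read 7.13, 6.32, 7.44 and 6.85, a range of 1.12. Hprt is X-linked. Xist, the RNA of the inactive X chromosome, read 2.44, 8.79, 8.46 and 1.93 on the same arrays. It was above background on the Ehf knockout and wild-type stem samples alone. The LncGata6 mutant and non-stem samples therefore each differed in Xist from the wild-type stem and Ehf knockout samples. The sex of the mice is not given, and its part in the values of Hprt and the other members was not tested.

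In what follows, a gene is called higher or lower where its log2 values differ by at least 1 and the brighter one reaches the 75th percentile over the genes of that array. A fold is brighter over dimmer, and is written as at least N-fold where the dimmer value was at background and the control limit took its place. Which genes differ in stem cells with a mutated LncGata6 is the question of the first comparison. On the LncGata6 mutant sample 8 of 10 members were called higher than on the wild-type stem sample and 0 lower, where 2.81% of all genes were called higher and 3.01% lower (5.82% either way). This contrast was used to choose the members, and nothing is read from that count. The median difference of the members was 3.66, against -0.06 over all genes.

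Among the surface hydrolases, all at background in wild-type stem cells, Enpp3 differed by 5.90 (at least 35.8-fold), Enpp7 by 5.41 (at least 19.0-fold) and Nt5e by 4.11 (at least 4.56-fold). Slc28a2 differed by 5.37 (at least 10.9-fold), and Slc28a1 by 2.46, for which the control limit leaves at least 1.02-fold. Among the intracellular enzymes, Ada was 43.3-fold higher, Xdh 9.25-fold and Pnp 2.31-fold. The second feature of Xdh differed by 0.64 and would not be called, and the median of its features gave 1.93. Among 30718 genes ranked by this difference, Enpp3 was the 2nd, Ada the 5th, Enpp7 the 6th and Slc28a2 the 9th, while Pnp was at rank 790. These differences were known when the members were chosen, and nothing is read from the ranks. The salvage enzymes were not called, with differences of -0.88 for Adk and -0.31 for Hprt.

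Marker genes of several cell types moved with these values. Enterocyte markers had a log2 summed level of 15.34 on the LncGata6 mutant sample and 12.37 on the wild-type stem sample, with 27 of 27 called higher. T cell and intraepithelial lymphocyte markers were above background in 12 of 15 cases against 3 of 15. Cd3e read 8.71 against 5.06, and Cd8a 8.68 against 4.21. Nt5e, Ada and Pnp are also expressed by lymphocytes, and the part of either cell type in the members' differences was not tested. Crypt base stem cell markers were called lower in 9 of 14 cases and endothelial markers in 6 of 10, and their part was not tested either.

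**Figure D3:**
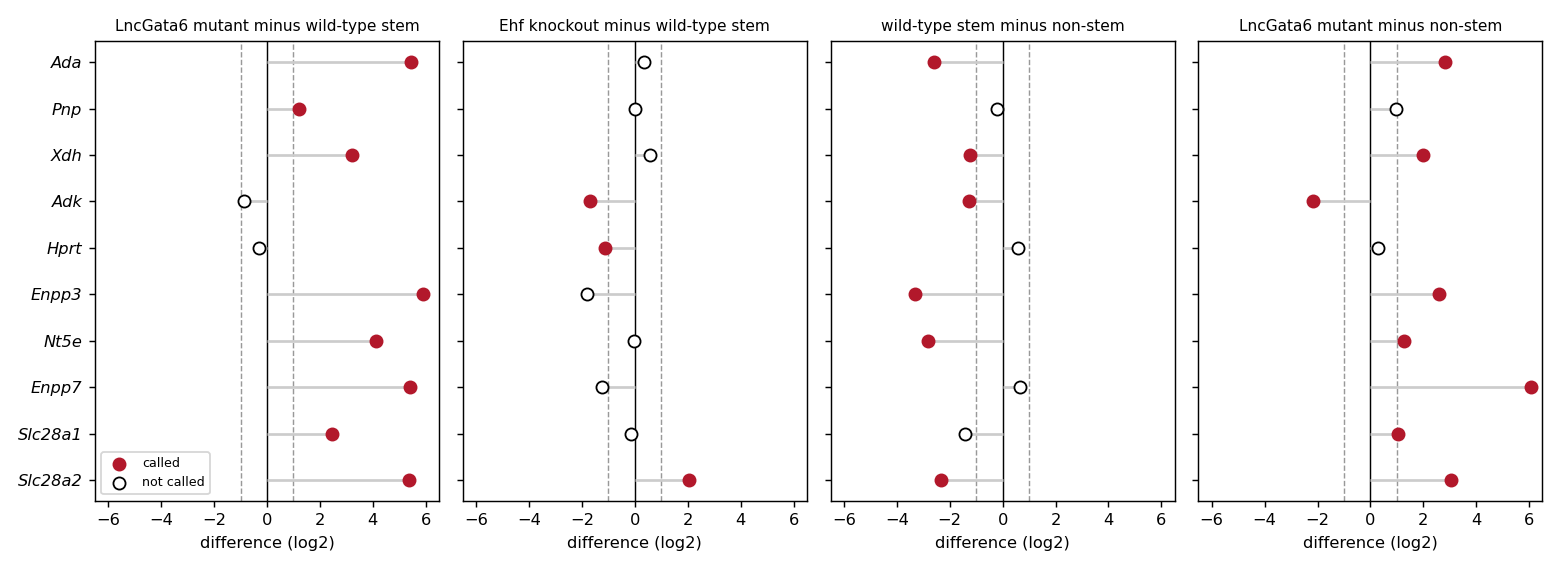
Difference of log2 values of each member (horizontal axis) for the LncGata6 mutant minus the wild-type stem sample, the Ehf knockout minus the wild-type stem sample, the wild-type stem minus the non-stem sample and the LncGata6 mutant minus the non-stem sample, each from 1 array per group. Filled points were called, open points were not, and dashed lines mark a difference of 1 either way. In the first panel 8 members lie between 1.21 and 5.90.

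On the Ehf knockout sample, 1 of 10 members was called higher than on the wild-type stem sample and 2 lower, where 2.59% of all genes were called higher and 5.28% lower (7.88% either way). The median difference of the members was -0.09, against -0.20 over all genes. Slc28a2 was the higher member, by 2.03, of which the control limit supports at least 1.08-fold. Adk was at least 2.74-fold lower and Hprt 2.18-fold lower. The Hprt call ended under each of the 3 other scalings, with differences of -0.93 after median centring, -0.75 after quantile normalization and -0.79 after cyclic loess.

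The breakdown enzymes were close on these arrays, with differences of 0.35 for Ada, 0.02 for Pnp and 0.57 for Xdh, none called. Enpp3 (-1.82), Enpp7 (-1.25), Nt5e (-0.05) and Slc28a1 (-0.13) were at background on both arrays, so no direction is given for them. The wild-type stem sample is shared with the first comparison. General epithelial markers had a log2 summed level of 7.64 on the Ehf knockout sample and 12.43 on the wild-type stem sample, and neutrophil markers 13.58 and 6.38. Macrophage and myeloid markers were above background in 12 of 12 cases against 2 of 12, and B and plasma cell markers in 7 of 7 against 3 of 7. For T cell and intraepithelial lymphocyte markers this was 9 of 15 against 3 of 15. The part of these cell types in the members' values was not tested. Quantile normalization turned the count over all genes to 1138 higher and 1034 lower, against 797 and 1623 on the deposited scale.

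The wild-type stem sample was compared with the non-stem sample to see which members distinguish stem from non-stem cells. In wild-type stem cells 6 of 10 members were called lower and 0 higher, where 7.07% of all genes were called lower and 3.83% higher (10.9% either way). Wild-type stem values also entered the choice of the members, and nothing is read from that count. The median difference of the members was -1.36, against -0.11 over all genes. Enpp3 was at least 5.94-fold lower, Ada 6.12-fold and Nt5e at least 1.89-fold. The carrier Slc28a2 was at least 1.33-fold lower. Adk was 2.45-fold lower and Xdh 2.36-fold. The Xdh call ended after quantile normalization (-0.92) and with the median of its features (-0.88). Pnp (-0.23) and Hprt (0.58) were not called, and Slc28a1 (-1.43) and Enpp7 (0.67) were at background on both arrays.

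The non-stem values stood beside liver and kidney transcripts. Hepatocyte markers had a log2 summed level of 10.04 on the wild-type stem sample, with Cps1 alone above background, and 15.15 on the non-stem sample, where albumin (Alb) read 12.52. Kidney tubule markers had summed levels of 7.77 and 13.61. Uox, the urate oxidase of liver, read 1.71 on the wild-type stem sample and 8.37 on the non-stem sample, and the renal urate carrier Slc17a1 read 1.46 and 8.90. Adk, Xdh, Nt5e and Ada are not restricted to intestine, and the part of liver and kidney RNA in their non-stem values was not tested. Xist also differed between the wild-type stem and non-stem samples (8.46 and 1.93), and the part of sex was not tested. Quantile normalization turned the count over all genes to 1732 higher and 1688 lower, against 1176 and 2171.

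Each mutant array was also set against the non-stem sample, which they share. On the LncGata6 mutant sample 7 of 10 members were called higher and 1 lower, where 3.68% of all genes were called higher and 6.86% lower (10.5% either way). Because the values of this array were used to choose the members, nothing is read from that count or from the rank given next. Enpp7 was at least 26.2-fold higher and ranked the 3rd of all genes, and Slc28a2 was 8.18-fold, Ada 7.07-fold, Enpp3 6.03-fold, Xdh 3.93-fold and Nt5e 2.42-fold higher. For Xdh the second feature differed by 0.12 and would not be called, and the median of its features gave 1.05. Slc28a1, at 1.03, lay just inside the limit and Pnp, at 0.98, just outside it. The Pnp difference was called after median centring (1.10), quantile normalization (1.43) and cyclic loess (1.23). Adk was 4.53-fold lower. The median difference of the members was 1.62, against -0.16 over all genes. Enterocyte markers were called higher in 20 of 27 cases (median difference 2.37) and T cell and intraepithelial lymphocyte markers in 13 of 15 (median 3.11), while hepatocyte markers were called lower in 14 of 15 cases and kidney tubule markers in 15 of 15. The part of these cell types in the members' values was not tested.

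On the Ehf knockout sample 4 of 10 members were called lower than on the non-stem sample and 0 higher, where 9.83% of all genes were called lower and 3.0% higher (12.8% either way). Adk was at least 6.72-fold lower, Enpp3 at least 8.02-fold, Ada 4.80-fold and Nt5e at least 2.55-fold. Slc28a2 (-0.30), Pnp (-0.21), Hprt (-0.54) and Xdh (-0.66) were not called. Enterocyte markers were called lower in 26 of 27 cases, hepatocyte markers in 15 of 15 and kidney tubule markers in 14 of 15, and neutrophil markers were called higher in 12 of 12. Their part in the members' values was not tested. Quantile normalization turned the counts over all genes to 1757 higher and 1859 lower for the Ehf knockout and to 1567 and 1568 for the LncGata6 mutant sample.

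Set against Ehf knockout cells, LncGata6 mutant cells had 8 of 10 members called higher and 0 called lower, where 6.17% of all genes were called higher and 3.47% lower (9.64% either way). LncGata6 mutant values entered the choice of the members, and nothing is read from that count. In size, Enpp3 was at least 48.3-fold higher, Ada 33.9-fold, Enpp7 at least 25.6-fold, Slc28a2 10.1-fold, Xdh 6.22-fold, Nt5e at least 6.16-fold, Pnp 2.27-fold and Slc28a1 at least 1.38-fold. For Xdh the second feature differed by 0.80 and would not be called, and the median of its features gave 1.72. Adk (0.79) and Hprt (0.81) were not called. The median difference of the members was 2.99 and that of all genes 0.13, which quantile normalization moved to -0.02, with 1415 genes called higher and 1453 lower. Enterocyte markers were above background in 27 of 27 cases on the LncGata6 mutant sample and 2 of 27 on the Ehf knockout sample, while neutrophil markers were called lower in 12 of 12, and their part was not tested.

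The rest of the pathway was read from lists of genes outside the 10. These lists, here and below, were also chosen with earlier results of these arrays known, so their counts are a description. The part of cell types in their differences was not tested. In a list of nucleotide breakdown enzymes and their relatives, not all of the cell surface, 15 genes were measured. On the LncGata6 mutant sample 5 of the 15 were called higher than on the wild-type stem sample and 1 lower. The shares over all genes were 2.81% and 3.01%. The median difference of the list was -0.12, against -0.06 over all genes. Intestinal alkaline phosphatase (Alpi), which strips phosphates in the lumen, read 10.64 against 6.79 and was 14.3-fold higher. The other alkaline phosphatases measured, Akp3 (4.28 against 3.88) and Alpl (3.59 against 3.72), were at background on both arrays. Bst1, a surface enzyme of NAD breakdown, was at least 3.52-fold higher, and the nucleoside triphosphate hydrolases Entpd8 and Entpd7 at least 3.08-fold and 2.79-fold. Entpd1 was the lower gene, at 4.16 against 5.20, both at background. In Ehf knockout cells 1 of the 15 was called higher and 1 lower, beside 2.59% and 5.28% of all genes. Bst1 was the higher gene, at 5.04 against 3.53, both at background, and Alpi the lower, at 3.16 against 6.79 (at least 3.04-fold).

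Inside the cell, 4 of 24 purine breakdown genes were called higher on the LncGata6 mutant sample than on the wild-type stem sample and 0 lower. Over all genes 2.81% were called higher and 3.01% lower. The median difference of the list was -0.02, against -0.06 over all genes. Guanine deaminase (Gda), which feeds guanine into the xanthine branch, read 9.42 against 5.19 and was at least 13.9-fold higher. Samhd1, which hydrolyses deoxynucleotides, was 2.80-fold higher and Pnp2, which may share probes with the member Pnp, 2.42-fold. Mocos, which activates the cofactor of Xdh, read 5.04 on the LncGata6 mutant sample and was at background on both. In Ehf knockout cells 4 were called higher and 1 lower, beside 2.59% and 5.28% of all genes. Among the higher were Gda (6.85 against 5.19, at least 2.33-fold) and Samhd1 (8.28 against 6.75, 2.88-fold). The nucleotidase Nt5c was 2.01-fold lower, a difference of -1.01 that lay just inside the limit. The part of myeloid and other cell types in these differences was not tested. Between the wild-type stem and non-stem samples 1 of the 24 was called higher and 8 lower, beside 3.83% and 7.07% of all genes. The lower genes were led by the liver enzymes Uox (at least 6.73-fold) and Aox3 (at least 4.76-fold).

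Salvage and synthesis were read in the same way. Of 14 other salvage genes, 0 were called higher and 1 lower on the LncGata6 mutant sample than on the wild-type stem sample (median -0.11), the lower being Ahcy, which releases adenosine from S-adenosylhomocysteine, by 2.28-fold. Over all genes the median difference was -0.06 in this comparison, with 2.81% called higher and 3.01% lower. Single calls in such short lists are therefore near the background. In Ehf knockout cells 0 of the 14 were called higher and 2 lower, beside 2.59% and 5.28% of all genes. The lower genes were Ahcy (2.41-fold) and the adenylate kinase Ak3 (3.54-fold). Of 9 genes of purine synthesis from small precursors, 0 were higher and 1 lower on the LncGata6 mutant sample, Atic at 4.61 against 5.87, and their median was -0.56. Their median in Ehf knockout cells was -0.41, against -0.20 over all genes. Of these synthesis genes 1 was higher and 0 lower, beside 2.59% and 5.28% of all genes.

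Carriers other than the 2 members formed a list of 17. On the LncGata6 mutant sample 2 of 17 were called higher than on the wild-type stem sample and 0 lower, beside 2.81% and 3.01% of all genes. They were Slc23a4, a nucleobase carrier of rodents, at 7.90 against 4.38 (at least 4.83-fold), and the urate exporter Abcg2 at 6.51 against 5.14 (at least 1.85-fold). In Ehf knockout cells 3 carriers were called higher and 1 lower, beside 2.59% and 5.28% of all genes. Of these carriers the purine nucleobase carrier Slc43a3 alone was above background, at 7.59 against 6.16 (2.70-fold). The part of cell types in its difference was not tested. Slc28a3, the third of the sodium-coupled family, was at background on all 4 arrays, with its highest value, 5.05, on the wild-type stem sample. Between the wild-type stem and non-stem samples 1 of the 17 was called higher and 9 lower, beside 3.83% and 7.07% of all genes. The kidney carriers Slc17a1 (at least 9.68-fold), Slc17a3 (at least 9.99-fold), Slc22a6 and Slc22a8 were furthest apart.

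For Enpp7, the neighbouring pathway is the digestion of sphingomyelin. Of 12 genes of this list, 2 were called higher and 0 lower on the LncGata6 mutant sample than on the wild-type stem sample. Their median difference was 0.19, against -0.06 over all genes. Over all genes 2.81% were called higher and 3.01% lower. Neutral ceramidase (Asah2), which splits the ceramide that sphingomyelinase releases, read 9.62 against 5.49 and was at least 16.0-fold higher. Smpdl3b, a phosphodiesterase of the same lipid class, was at least 5.12-fold higher. On the Ehf knockout sample 3 of the 12 were called lower than on the wild-type stem sample and 0 higher, beside 5.28% and 2.59% of all genes. Smpd3 was at least 1.88-fold and Cers6 2.29-fold lower, while Asah2 was at background on both arrays (3.62 against 5.49). The part of cell types in these differences was not tested.

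**Figure D4:**
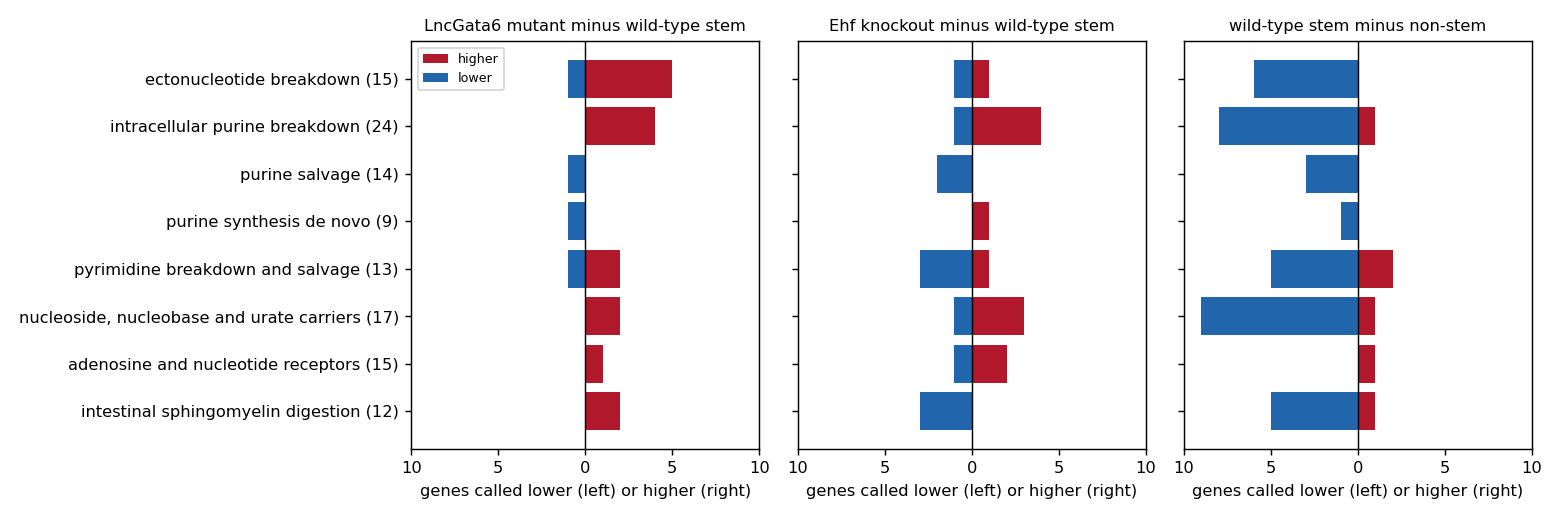
Number of genes called higher (to the right) and lower (to the left) in 8 lists around the members, for the LncGata6 mutant minus the wild-type stem sample, the Ehf knockout minus the wild-type stem sample and the wild-type stem minus the non-stem sample. Brackets give the genes measured in each list, and breakdown lists hold 5 of 15 and 4 of 24 higher genes in the first panel and the salvage and synthesis lists 0 of 14 and 0 of 9, where 2.81% of all genes were called higher and no difference between lists was tested.

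The genes whose profile over the 4 arrays was most like that of a member were found by the root mean square difference of log2 values after each gene's own mean was subtracted, among 7022 protein-coding genes above background on at least 1 array. For Ada these were Sectm1b (0.35), Cyp2b10 (0.36) and the trehalase gene Treh (0.56). For Enpp3 they were neprilysin (Mme, 0.26), the apolipoprotein Apoa4 (0.64) and the amino acid carrier Slc6a19 (0.69). For Nt5e they were enteropeptidase (Tmprss15, 0.35), Aspa (0.37) and the peptidase Pepd (0.38). For Slc28a2 they were its copy Slc28a2b (0.26), guanine deaminase (Gda, 0.47) and Ifit1bl2 (0.53).

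Enpp7 was followed by the phosphate carrier Slc34a2 (0.37), Pmp22 (0.57) and the granzyme Gzmb (0.74), a gene of cytotoxic lymphocytes. For Xdh they were the interferon-induced Ifit1 (0.11), Gm11127 (0.24) and the fatty acid transporter Slc27a4 (0.25), and for Slc28a1 they were Egln3 (0.11), Plpp1 (0.14) and Gramd1b (0.15). For Pnp, Adk and Hprt the nearest genes lay within 0.03 to 0.11. With 4 arrays, many genes can match a profile, and Pnp and Hprt had small ranges (1.21 and 1.12, against 2.97 for Adk). A small distance is therefore no sign of a closer relation. Among the members themselves, the nearest pairs were Xdh with Slc28a1 (0.42), Pnp with Hprt (0.56) and Ada with Nt5e (0.59), and the furthest was Adk with Enpp7 (3.08).

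**Figure D5:**
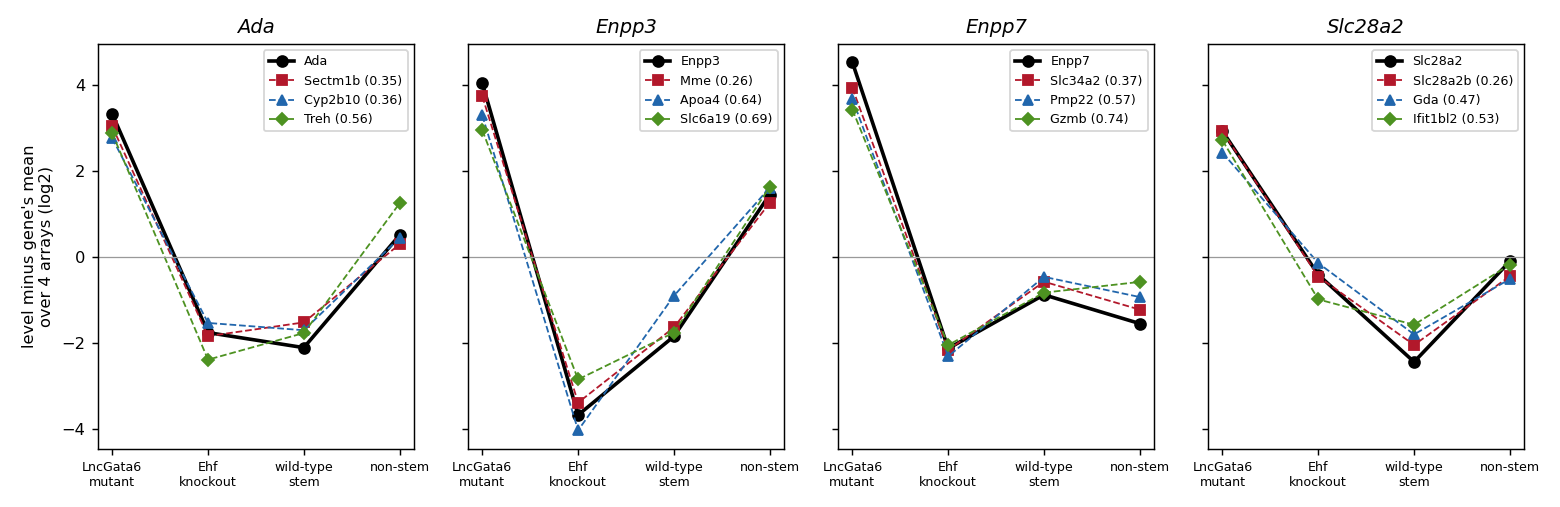
Level minus the gene's own mean over the 4 arrays (vertical axis, log2) for Ada, Enpp3, Enpp7 and Slc28a2 (black) and the 3 nearest genes of each, on the LncGata6 mutant, Ehf knockout, wild-type stem and non-stem samples. Lines only join the values of a gene, and the root mean square difference from the member stands in brackets, from 0.26 for Mme and Slc28a2b to 0.74 for Gzmb.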

How the data were processed

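The samples were hybridised to Clariom D arrays of mouse transcripts, per the labels' protocols. The authors deposited log2 values for 72688 features. The submitters' processing notes name Affymetrix Power Tools and RMA, without a version or genome build. In RMA, the software subtracts background, scales arrays to each other and summarises probes, which compresses differences of dim features. The log2 scale was taken from the values, -0.183 to 13.1.

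Symbols came from the platform annotation, updated through RefSeq (GRCm38.p6), which changed 1797 entries. In all, 31280 features had 1 symbol and 1470 several. Differences of log2 values between arrays were computed in Python 3.11.15 with pandas 2.3.3, and calls used the limits in the text, with 5222 negative controls. Alternatives were median centring, quantile normalization and cyclic loess (limma 3.58.1), a 4-fold limit, other brightness limits and the median of a gene's features. Named genes were the members, up to 4 called genes each way per list, and the 3 nearest profiles, and others were chosen after their values were seen. The members and lists were chosen with earlier results of these arrays known. With 1 array per group, the number of arrays limits the precision.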

Additional observations from a re-analysis of the deposited data

How the results depend on the processing

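Of 240 alternative values of the members' 60 differences, over 3 scalings and the median of features, 232 kept their side of the limits, 5 lost a call and 3 gained one. None of the 37 called differences changed sign, whereas 6 of the differences that were not called did so in 13 alternative values, reaching at most 0.41 in size after the change. The number of members called lower on the Ehf knockout sample against the wild-type stem sample, 2 as reported, was 1 under median centring, quantile normalization and cyclic loess, 0 with a 4-fold limit and 4 without a brightness limit, which adds Enpp3 and Enpp7 at background. The number called higher on the LncGata6 mutant sample against the non-stem sample, 7 as reported, was 4 with a 4-fold limit. The lost and gained calls of Hprt, Xdh and Pnp are given with their comparisons, and the cause was not tested. Quantile normalization moved the median difference of all genes by over 0.1 where the Ehf knockout was set against wild-type stem cells (0.0, against -0.20 on the deposited scale), and in 4 other comparisons. It became 0.05 for wild-type stem minus non-stem (-0.11), 0.05 for LncGata6 mutant minus non-stem (-0.16), 0.07 for Ehf knockout minus non-stem (-0.29) and -0.02 for LncGata6 mutant minus Ehf knockout (0.13). No paired analysis was possible because each group has 1 array. The pathway and marker lists were counted on the deposited scale alone. Bounds written as at least N-fold are set by the negative controls, so Slc28a1, Nt5e and Slc28a2 are limited by signal over background.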

Other observations

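Pyrimidine enzymes, which share the nucleoside carriers with the purine enzymes, were also measured. Of 13 genes of pyrimidine breakdown and salvage, 2 were called higher and 1 was called lower in LncGata6 mutant than in wild-type stem cells. Over all genes 2.81% were called higher and 3.01% lower. The median difference of the list was 0.44, against -0.06 over all genes. Uridine phosphorylase Upp1 was at least 2.60-fold higher, and Dpyd, the first enzyme of uracil and thymine breakdown, read 7.23 against 5.78 (2.73-fold higher). Uck2, the uridine-cytidine kinase of salvage, read 5.61 against 7.30 (3.22-fold lower). On the Ehf knockout sample Dpyd read 2.47 and Uck2 6.28, and both were called lower than on the wild-type stem sample. The Uck2 difference of -1.01 lay just inside the limit, where the median over all genes was -0.20. Uck2 was also higher on the wild-type stem sample, at 7.30, than on the non-stem sample, at 5.43.

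Receptors for nucleotides were measured through 14 genes and those for adenosine through Adora3 alone, which was at background on all 4 arrays. On the LncGata6 mutant sample 1 of these 15 genes was called higher than on the wild-type stem sample, where 5.82% of all genes were called either way, the ATP-gated channel P2rx7, at 5.82 against 3.52, for which the control limit leaves at least 1.15-fold. On the Ehf knockout sample 2 were called higher (P2ry13 and P2rx7) and 1 lower (P2ry1), where 7.88% of all genes were called, and all 3 were at background on both arrays. The ADP receptor P2ry1 read 5.55 on the wild-type stem sample against 3.87 on the non-stem sample, both at background.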
